A study of Mus musculus with 12 samples.

Results

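Transcript levels of 9 nuclear receptor genes of the liver were followed through the change of 2 mouse liver cell types from flat culture to spheroids. The genes are Nr1i2, Nr1i3, Nr1h4, Nr0b2, Ppara, Rxra, Nr1h3, Nr1d1 and Esrra, taken by symbol from the 53599 genes of the count matrix. All 9 were found, and 8 passed the filter on low counts that left 14798 genes for testing; Nr0b2 did not. The 12 RNA-seq libraries form 4 groups of 3, named here as bilCLiP 3D, bilCLiP 2D, hepCLiP 3D and hepCLiP 2D. Both are cell lines from liver, bilCLiP derived from biliary epithelial cells and hepCLiP from hepatocytes. The series asks how far such cells can move between the hepatocyte and the biliary state.

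All 4 groups received small hepatocyte medium with YAC, a mix of small molecules that holds Y-27632 (against ROCK kinases), A83-01 (against TGF-beta receptors) and CHIR99021 (against GSK3). The 3D groups, called hepatic induction in the labels, were aggregated in microwells for 3 days without serum. Suspension culture of 6 to 8 days followed, in which oncostatin M, an interleukin-6 family cytokine, was present at 10 ng/ml. The 2D groups were maintained on collagen-coated plates with 10% fetal bovine serum. Culture format, serum, oncostatin M and time in culture therefore cannot be told apart in the 3D against 2D comparison. All 6 bilCLiP libraries carry RosaYFP, a fluorescent reporter allele, as do hepCLiP replicates 2, whereas hepCLiP replicates 1 and 3 carry the multicolour reporter RosaConfetti. By these reporters, hepCLiP replicate 2 does not come from the same animal as hepCLiP replicates 1 and 3. Beyond this the labels do not tell whether replicates are separate animals or isolations. The p-values therefore cover the spread among these cultures, which may in part be technical.

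For 4 libraries the treatment tag goes against the title. The 3 bilCLiP 3D libraries are tagged as 2D maintenance and hepCLiP 2D replicate 3 is tagged as 3D induction; groups here follow the titles. The summed level of 10 hepatocyte markers was 22847 to 52833 CPM (counts scaled to a common library size) in bilCLiP 3D and 1795 to 5241 CPM in bilCLiP 2D. It was 51073 to 58249 CPM in hepCLiP 3D and 1597 to 4044 CPM in hepCLiP 2D, so the titles and not the tags follow this sum. The 10 cholangiocyte markers summed to 13814 to 33373 CPM in bilCLiP 3D, 6068 to 10924 CPM in bilCLiP 2D, 11366 to 15748 CPM in hepCLiP 3D and 3626 to 6577 CPM in hepCLiP 2D. Most of this sum was Spp1, with means of 24804 CPM in bilCLiP 3D and 6225 CPM in bilCLiP 2D, and of 13681 CPM in hepCLiP 3D and 2693 CPM in hepCLiP 2D. The keratin gene Krt19, a defining marker, went the other way, with means of 5.32 CPM in bilCLiP 3D and 694 CPM in bilCLiP 2D, and of 8.74 CPM in hepCLiP 3D and 860 CPM in hepCLiP 2D. Of the 10, 3 were higher (Spp1, Aqp1 and Slc10a2) and 3 lower (Krt19, Tspan8 and Cftr) in bilCLiP 3D by edgeR's test, and 3 were higher (Spp1, Aqp1 and Muc1) and 4 lower (Krt19, Krt7, Tspan8 and Cftr) in hepCLiP 3D. Among all tested genes, 15.8% were higher and 14.5% lower in bilCLiP 3D, and 16.9% higher and 17.9% lower in hepCLiP 3D. Libraries held 16142365 to 21253382 counts, and the 10 most abundant genes took 17.6% to 23.2% of them in 3D and 5.0% to 7.47% in 2D. In these bulk samples, fewer cells of a type and less RNA per cell cannot be told apart.

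Most of these receptors work as pairs. The retinoid X receptor RXR alpha, encoded by Rxra, is the shared partner that lets PXR, CAR, FXR, PPAR alpha and LXR alpha bind DNA, each of which senses a different class of small molecule. PXR (Nr1i2) and CAR (Nr1i3) respond to drugs and other foreign compounds, FXR (Nr1h4) to bile acids, PPAR alpha (Ppara) to fatty acids in fasting, and LXR alpha (Nr1h3) to oxysterols. SHP (Nr0b2) lacks a DNA-binding domain and represses bile acid synthesis when FXR induces it. REV-ERB alpha (Nr1d1) is a repressor of the circadian clock that binds heme, and ERR alpha (Esrra) drives mitochondrial genes together with PGC-1 coactivators.

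RefSeq start sites of the members gave 11 windows of 250 upstream bases, from the GRCm38.p6 build, which is not the GRCm39 build named for the counts. Of these, 5 are shown: those of Rxra (both starts), Ppara and Nr1h3 (only the more upstream of its starts), whose transcripts were higher in 3D, and that of Nr1h4, whose transcript was not called. Each runs 5′ to 3′ on the strand of its gene, and capitals mark the nuclear receptor core hexamer AGGTCA or its reverse complement TGACCT.
Rxra, first start, plus strand, chr2:27676951-27677200: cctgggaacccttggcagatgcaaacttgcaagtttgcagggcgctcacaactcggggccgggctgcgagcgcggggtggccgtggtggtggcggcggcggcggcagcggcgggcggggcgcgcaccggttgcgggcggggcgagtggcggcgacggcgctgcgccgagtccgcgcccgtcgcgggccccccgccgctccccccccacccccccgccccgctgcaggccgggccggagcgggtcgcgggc
Rxra, second start, plus strand, chr2:27709042-27709291: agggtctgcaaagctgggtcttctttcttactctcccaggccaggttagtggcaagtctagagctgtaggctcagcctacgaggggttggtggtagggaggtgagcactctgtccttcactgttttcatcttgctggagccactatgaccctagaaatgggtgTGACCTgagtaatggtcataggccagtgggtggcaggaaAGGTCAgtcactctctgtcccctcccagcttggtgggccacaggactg
Ppara, plus strand, chr15:85735526-85735775: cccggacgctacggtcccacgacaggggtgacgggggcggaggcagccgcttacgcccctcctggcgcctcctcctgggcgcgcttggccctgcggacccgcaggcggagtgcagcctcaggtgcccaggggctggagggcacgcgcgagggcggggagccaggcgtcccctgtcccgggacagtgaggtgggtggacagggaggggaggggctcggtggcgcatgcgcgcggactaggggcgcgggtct
Nr1h3, minus strand, chr2:91195117-91195366: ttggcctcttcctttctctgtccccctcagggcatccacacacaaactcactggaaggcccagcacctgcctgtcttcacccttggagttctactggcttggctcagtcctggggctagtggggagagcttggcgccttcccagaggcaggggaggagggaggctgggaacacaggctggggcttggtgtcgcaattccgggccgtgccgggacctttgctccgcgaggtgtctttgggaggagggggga
Nr1h4, minus strand, chr10:89506659-89506908: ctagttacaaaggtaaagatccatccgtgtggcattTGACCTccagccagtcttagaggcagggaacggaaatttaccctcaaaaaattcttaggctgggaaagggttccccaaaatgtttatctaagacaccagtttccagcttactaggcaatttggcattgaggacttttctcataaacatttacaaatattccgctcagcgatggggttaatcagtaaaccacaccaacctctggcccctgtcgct
The first Rxra window and that of Ppara were rich in G and C, at 81.2% and 76.4%, against an upper quartile of 61.2% over 32851 mouse promoters. The Nr1h3 window shown held 63.2% G and C, the second Rxra window 55.2% and that of Nr1h4 44.4%, where the median of all promoters was 52.4%.

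The core hexamer AGGTCA, searched on both strands, was found in 2 of the 11 windows. The second Rxra window holds it at -87 on the minus strand and at -48 on the plus strand, counted from the start site, and the Nr1h4 window holds it at -214 on the minus strand. Of all promoter windows of this length, 14.02% hold it. The E-box CACGTG, which reads the same on both strands, was found in the windows of Nr1i3 (at -244) and Nr0b2 (at -195) and in 6.02% of all windows. Direct repeats of the core hexamer with 1 (AGGTCANAGGTCA), 2 (AGGTCANNAGGTCA) or 4 spacer bases (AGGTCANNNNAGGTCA) were in none of the members' windows and in 0.033%, 0.009% and 0.015% of all windows; these longer patterns contain the hexamer. The patterns CAAAGTCCA (HNF4, in 0.384% of all windows), GTTAATNATTAA (HNF1, 0.061%) and TTGCGCAA (C/EBP, 0.164%) were not found in the members' windows either. A match of letters is a description of the window and shows no binding.

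In 3D culture Rxra, Ppara, Nr1h3 and Nr1d1 were more abundant in both cell types. Of the 8 members tested, Nr1i3 passed the filter on low counts only through the hepCLiP 3D libraries, where it is high, and is left out of the counts that follow. Of the other 7, 5 were higher and none lower in bilCLiP 3D than in bilCLiP 2D, namely Nr1i2, Ppara, Rxra, Nr1h3 and Nr1d1. The share of all tested genes called was 30.3%, or 15.8% counting only genes higher in 3D. In hepCLiP 3D against hepCLiP 2D, 4 of 7 were higher and none lower, the same genes without Nr1i2, where 34.7% of all tested genes were called and 16.9% were higher. Nr1h4 and Esrra were called in neither comparison. Members with all 3D libraries above all 2D libraries were the same genes and Nr1i3, beside 24.6% of tested genes in bilCLiP and 22.3% in hepCLiP. For Nr1i3 in bilCLiP the nearest libraries of 3D and 2D both held 1 count, so that library size alone separates them. No member had all 3D libraries below, as 24.5% of tested genes did in each cell type. The median log2 fold change of the 7 was 2.43 in bilCLiP and 0.81 in hepCLiP, beside -0.00 and -0.06 over all tested genes. A gene was called at an adjusted p under 0.05 in edgeR's quasi-likelihood test with Benjamini-Hochberg adjustment, and adjusted p-values below are edgeR's where no other program is given.

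**Figure D1:**
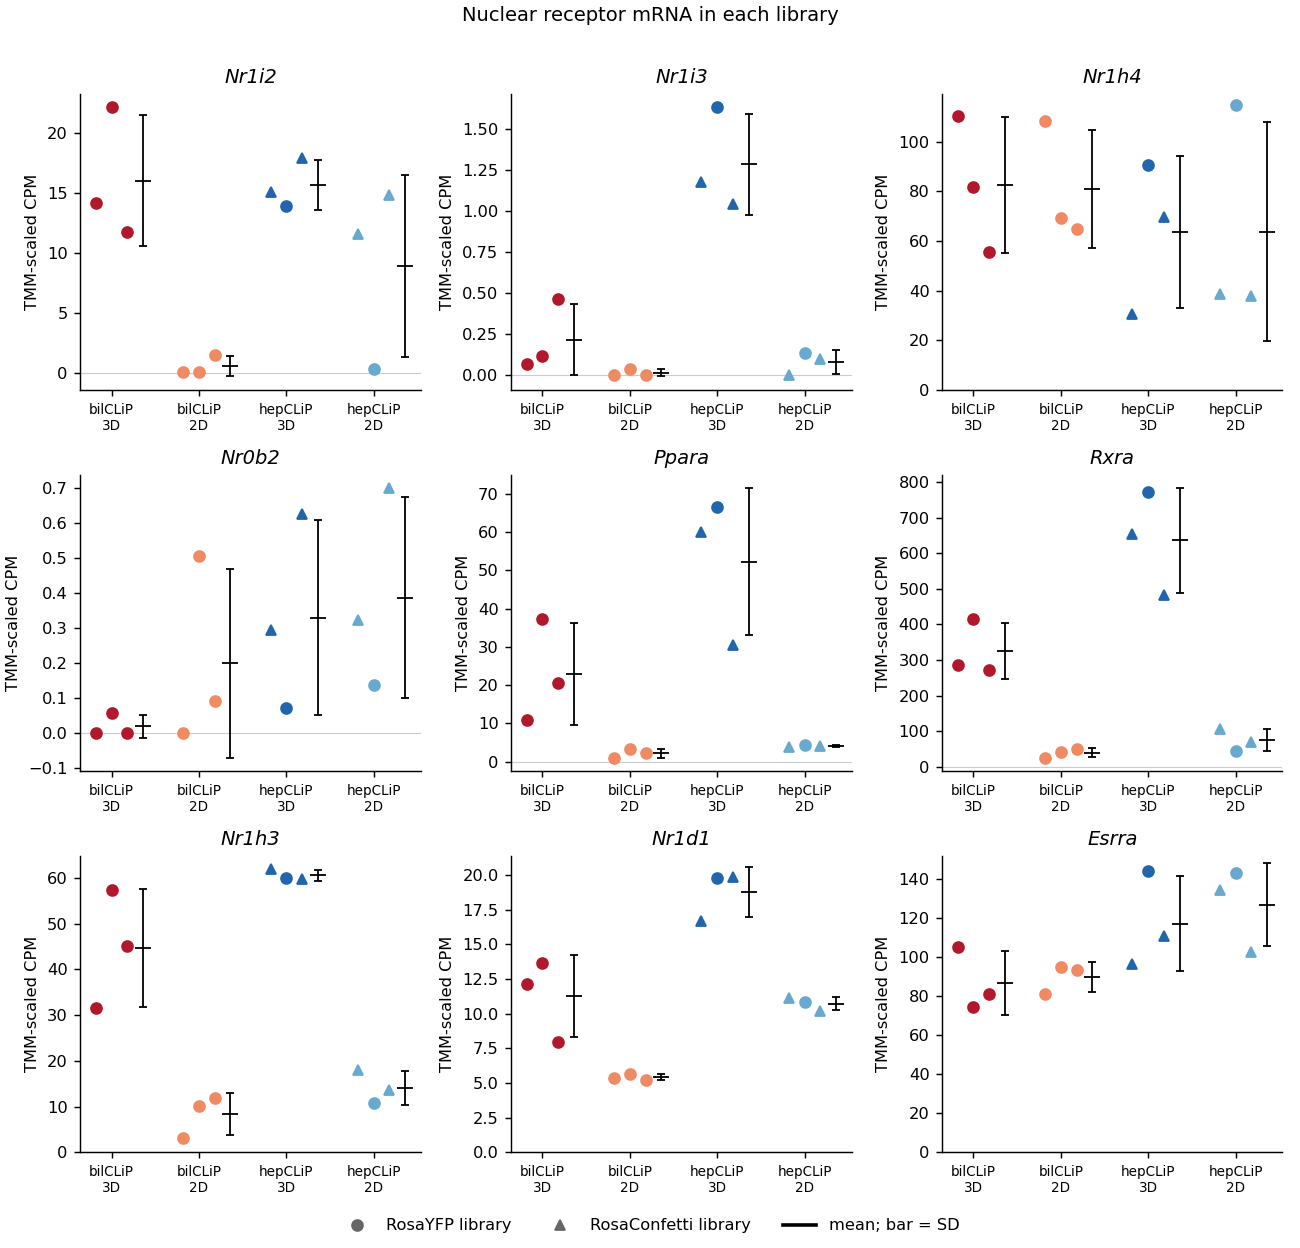
Transcript level of the 9 receptor genes in TMM-scaled CPM (y axis, 1 panel per gene, linear scale) in bilCLiP 3D, bilCLiP 2D, hepCLiP 3D and hepCLiP 2D; points are the 3 libraries of a group (circles RosaYFP, triangles RosaConfetti) and the bar beside them is the mean with SD, which can reach below 0. The 3D points of Rxra, Ppara, Nr1h3 and Nr1d1 stand above all 2D points of the same cell type, while those of Nr1h4 and Esrra mix with them.

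Rxra, the shared heterodimer partner, was the most abundant of the members in 3D per kilobase of exon. It had 287, 416 and 272 CPM in the bilCLiP 3D libraries (replicates 1, 2 and 3), against 25.3, 42.4 and 49.8 CPM in bilCLiP 2D. In hepCLiP 3D it had 654, 773 and 481 CPM, against 107, 44.5 and 70.6 CPM in hepCLiP 2D. Every 3D library lay above every 2D library, and the hepCLiP 3D libraries above those of bilCLiP 3D. The log2 fold change of 3D over 2D was 3.05 ± 0.37 (SE; 8.29-fold, adjusted p = 0.000276) in bilCLiP and 3.11 ± 0.37 (8.61-fold, adjusted p = 0.000226) in hepCLiP. Of the close relatives of Rxra, Rxrb, encoding RXR beta, was higher by 0.48 on the log2 scale in bilCLiP 3D (adjusted p = 0.0182) and missed the threshold in hepCLiP with a log2 fold change of 0.35 (adjusted p = 0.0587). Its calls were not firm: with the fit blocked by replicate number it was called in hepCLiP (0.36, adjusted p = 0.0336), and in bilCLiP it was lost without 3D replicate 2 (0.0616) or 2D replicate 1 (0.0698). Per kilobase of exon, Rxra stood at 4.49 to 6.68 times the Rxrb level in bilCLiP 3D and 0.641 to 1.14 times in bilCLiP 2D. In hepCLiP it stood at 7.32 to 10.8 times in 3D and 0.740 to 1.81 times in 2D.

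Ppara, the receptor for fatty acids, had the largest change among the members counted at 1 CPM or more in every library. In bilCLiP 3D it had 10.9, 37.3 and 20.7 CPM, against 1.03, 3.26 and 2.14 CPM in bilCLiP 2D. The hepCLiP 3D libraries had 59.9, 66.5 and 30.4 CPM, against 3.79, 4.36 and 4.10 CPM in hepCLiP 2D. The groups did not overlap in either cell type, and replicate 3 of hepCLiP 3D was the low one of its group. The log2 fold change was 3.41 ± 0.52 (10.6-fold, adjusted p = 0.000993) in bilCLiP and 3.68 ± 0.52 (12.8-fold, adjusted p = 0.000572) in hepCLiP.

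Nr1h3, encoding the oxysterol receptor LXR alpha, had 31.5, 57.3 and 45.1 CPM in bilCLiP 3D, against 3.10, 10.0 and 11.8 CPM in bilCLiP 2D. In hepCLiP 3D it had 61.9, 59.9 and 59.8 CPM, against 18.1, 10.7 and 13.7 CPM in hepCLiP 2D. The 3 hepCLiP 3D libraries were nearly equal, and 3D and 2D did not overlap in either cell type. Expressed as a log2 fold change, 3D over 2D was 2.43 ± 0.42 (5.37-fold, adjusted p = 0.00187) in bilCLiP and 2.10 ± 0.41 (4.28-fold, adjusted p = 0.00315) in hepCLiP. Its relative Nr1h2, the widely expressed LXR beta, had log2 fold changes of 0.22 in bilCLiP and 0.26 in hepCLiP and was called in neither. Per kilobase of exon, Nr1h3 stood at 0.812 to 1.28 times the Nr1h2 level in bilCLiP 3D, against 0.0974 to 0.300 times in bilCLiP 2D. In hepCLiP the ratio was 1.12 to 1.47 in 3D and 0.250 to 0.492 in 2D.

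Nr1i2, encoding the drug sensor PXR, differed most between libraries of one group. It had 14.2, 22.2 and 11.8 CPM in bilCLiP 3D, against 0.0861, 0.117 and 1.55 CPM in bilCLiP 2D, which rest on 2, 3 and 34 counts. The hepCLiP 3D libraries had 15.1, 13.9 and 17.9 CPM, against 11.6, 0.409 and 14.8 CPM in hepCLiP 2D. All 6 libraries of 3D lay within a narrow band, whereas in 2D hepCLiP replicates 1 and 3 were near that band and the other 4 libraries far below it. Those 4 are the RosaYFP libraries of 2D and the 2 high ones are the RosaConfetti libraries. The log2 fold change was 4.79 ± 1.20 in bilCLiP (adjusted p = 0.0126), called also without any 1 library, and it was 7.21 without bilCLiP 2D replicate 3. In hepCLiP it was 0.81 ± 1.00 (adjusted p = 0.566), with a 95% interval of -1.40 to 3.01 and values of 0.25 without hepCLiP 2D replicate 2 and 1.38 without replicate 3. The bilCLiP call was lost when genes with low counts were kept in the fit (adjusted p = 0.0542).

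Nr1i3, encoding the xenobiotic sensor CAR, was close to the limit of detection. It had 1, 2 and 8 counts in bilCLiP 3D, against 0, 1 and 0 in bilCLiP 2D, and 16, 23 and 15 counts in hepCLiP 3D, against 0, 3 and 2 in hepCLiP 2D. In CPM this is at most 0.464 in bilCLiP 3D and 1.04 to 1.63 in hepCLiP 3D. The hepCLiP 3D libraries stood apart from all others, and the gene passed the filter through them, as the only group with 10 or more counts in each library. Its log2 fold change of 3.92 ± 0.90 in hepCLiP (adjusted p = 0.00691) therefore rests on the values that let it be tested. With no filter on low counts it was 3.92 as well (adjusted p = 0.00720 in edgeR's test). That fit uses the same counts, so it is no separate support for the call. In bilCLiP the 11 counts of 3D against 1 of 2D give a ratio of 15.6 with an exact 95% interval of 2.27 to 674, for counting error only. Its call in bilCLiP (adjusted p = 0.0458) held in 2 of 12 fits that each left out a library, with a log2 fold change of 2.26 without bilCLiP 3D replicate 3 (adjusted p = 0.235), and ended when the fit was blocked by replicate number (log2 3.31, adjusted p = 0.0575). Of the exon bases of Nr1i3, 74.9% are shared with Tomm40l on the opposite strand in the GENCODE M21 annotation, and the strand setting of the counting is not given in the sources used here. Tomm40l had 8.69, 9.47 and 7.37 CPM in bilCLiP 3D, 5.64, 5.44 and 5.51 CPM in bilCLiP 2D, 13.8, 13.98 and 11.9 CPM in hepCLiP 3D and 8.70, 7.68 and 5.55 CPM in hepCLiP 2D. These levels moved in the same direction as those of Nr1i3, and their part in it was not tested.

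Nr1h4, encoding the bile acid receptor FXR, was abundant in all 4 groups. It had 110, 81.8 and 55.7 CPM in bilCLiP 3D, against 108, 69.3 and 64.9 CPM in bilCLiP 2D. In hepCLiP 3D it had 30.6, 90.6 and 69.7 CPM, against 38.8, 115 and 37.8 CPM in hepCLiP 2D. The groups overlapped throughout, and replicate 2 was the highest of both hepCLiP cultures. Expressed as a log2 fold change, 3D over 2D was 0.03 ± 0.49 in bilCLiP (adjusted p = 0.969, 95% interval -1.06 to 1.12) and -0.00 ± 0.49 in hepCLiP (adjusted p = 0.998, -1.09 to 1.09). These intervals leave room for changes of up to about 1 on the log2 scale in either direction.

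Nr0b2, encoding the bile acid repressor SHP, had 0, 1 and 0 counts in bilCLiP 3D, against 0, 13 and 2 in bilCLiP 2D. The hepCLiP 3D libraries had 4, 1 and 9 counts, against 7, 3 and 14 in hepCLiP 2D. It was near or at 0 in all groups, though every library held at least 16142365 counts, and it was not tested in the filtered fit. The 1 count of bilCLiP 3D against 15 of bilCLiP 2D gives a ratio of 0.0948 with an exact 95% interval of 0.00225 to 0.616, for counting error only; 13 of the 15 came from 1 library. With no filter, its edgeR log2 fold change was -3.02 ± 1.48 in bilCLiP (adjusted p = 0.236) and -0.20 in hepCLiP (adjusted p = 1.00).

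Nr1d1, encoding the clock repressor REV-ERB alpha, had smaller changes than Rxra, Ppara and Nr1h3. It had 12.1, 13.7 and 7.95 CPM in bilCLiP 3D, against 5.34, 5.67 and 5.24 CPM in bilCLiP 2D. In hepCLiP 3D it had 16.7, 19.8 and 19.9 CPM, against 11.1, 10.9 and 10.2 CPM in hepCLiP 2D. Both 2D groups had little spread, and no 3D library reached down to its own 2D group. The log2 fold change was 1.05 ± 0.20 (2.07-fold, adjusted p = 0.00339) in bilCLiP and 0.81 ± 0.20 (1.75-fold, adjusted p = 0.0104) in hepCLiP. Of its exon bases, 8.55% overlap Thra, the thyroid hormone receptor alpha gene on the other strand, which was called in neither cell type (log2 0.70, adjusted p = 0.169 in bilCLiP; 0.43, adjusted p = 0.380 in hepCLiP). The paralogue Nr1d2, encoding REV-ERB beta, was higher by 1.26 in bilCLiP 3D and 1.37 in hepCLiP 3D on the log2 scale. The hour at which cells were collected is not given in the labels.

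Esrra, encoding the mitochondrial regulator ERR alpha, had 105, 74.3 and 80.8 CPM in bilCLiP 3D, against 81.0, 95.1 and 93.3 CPM in bilCLiP 2D. The hepCLiP 3D libraries had 96.6, 144 and 111 CPM, against 134, 143 and 103 CPM in hepCLiP 2D. The cultures overlapped in both cell types. Expressed as a log2 fold change, 3D over 2D was -0.05 ± 0.19 in bilCLiP (adjusted p = 0.872, 95% interval -0.47 to 0.37) and -0.11 ± 0.19 in hepCLiP (adjusted p = 0.678, -0.53 to 0.31). These are narrower intervals than those of Nr1h4.

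**Figure D2:**
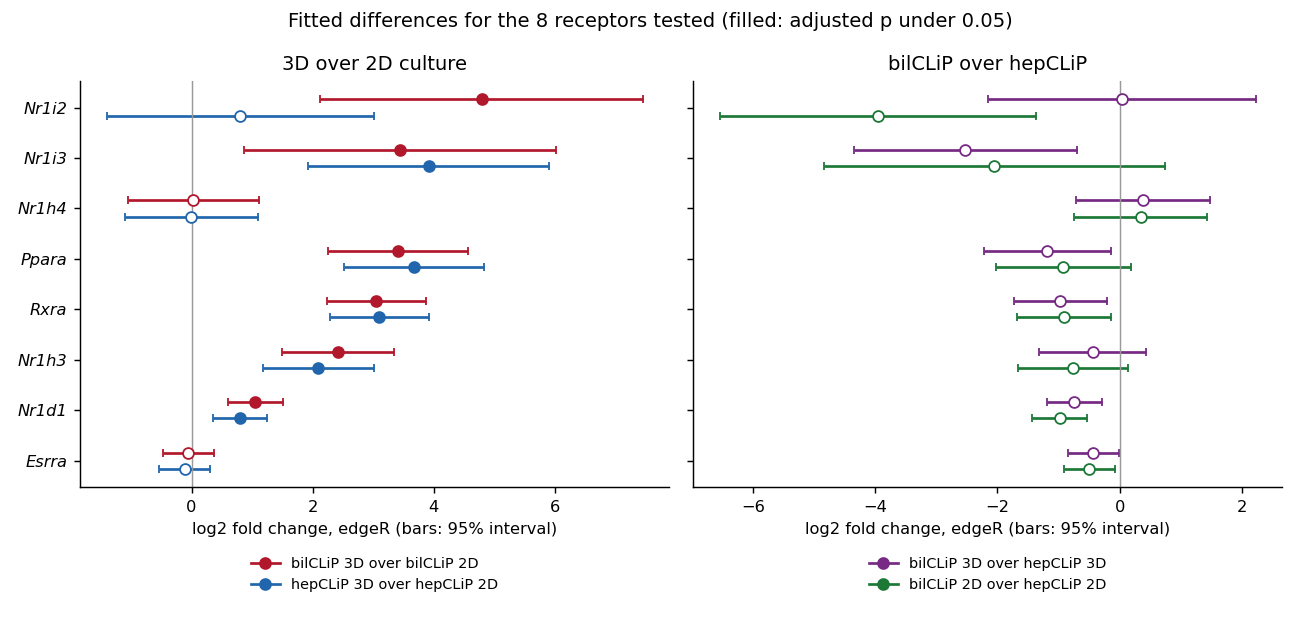
Log2 fold change (x axis) of the 8 tested receptor genes with its 95% interval, in 1 panel for 3D over 2D within bilCLiP and hepCLiP and 1 panel for bilCLiP over hepCLiP within 3D and 2D; the line at 0 means equal levels. With culture, intervals of Rxra, Ppara, Nr1h3 and Nr1d1 stay right of 0 in both cell types and those of Nr1h4 and Esrra span 0. Those of Nr1i3 stay right of 0 too, but it passed the filter only through hepCLiP 3D, where it is high. In bilCLiP, Nr1i3 rests on 11 counts in 3D against 1 in 2D and was called in 2 of 12 fits that each left out a library. The interval of Nr1i2 starts at 2.13 in bilCLiP and at -1.40 in hepCLiP, a difference that had an adjusted p of 1.00 in edgeR's test.

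Without hepCLiP 2D replicate 3, the library tagged as 3D, the members called in hepCLiP stayed the same, among 4168 genes called in all. The log2 fold changes were then 3.68 for Ppara (adjusted p = 0.00354), 3.07 for Rxra (0.00167), 2.07 for Nr1h3 (0.0143), 0.77 for Nr1d1 (0.0369) and 4.10 for Nr1i3 (0.0249), all from edgeR's test. Those of Nr1h4 and Esrra were -0.27 and -0.25. Nr1i3 entered the test through hepCLiP 3D, where it is high.

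Markers of several other cell types moved with culture. Mesothelial markers summed to 13.0 to 28.1 CPM in bilCLiP 3D and 547 to 874 CPM in bilCLiP 2D, and to 5.93 to 26.1 CPM in hepCLiP 3D and 334 to 989 CPM in hepCLiP 2D, nearly all of it from Msln in 2D. The 10 fibroblast and stellate markers summed to 24.5 to 39.7 CPM in bilCLiP 3D and at most 4.87 CPM in bilCLiP 2D, with no overlap. In hepCLiP they summed to 290.6 CPM in 3D replicate 1, 7.38 and 5.42 CPM in the other 3D libraries and 1.32 to 9.02 CPM in 2D. Without hepCLiP 3D replicate 1, the hepCLiP calls of Ppara, Rxra, Nr1h3 and Nr1d1 held, as did that of Nr1i3, which entered the test through hepCLiP 3D. The log2 fold changes of Nr1h4 and Esrra were then 0.40 and 0.08. Endothelial markers summed to 0.0659 to 0.638 CPM in bilCLiP 3D and 2.37 to 3.75 CPM in bilCLiP 2D, also with no overlap, and to 0.426 to 0.659 CPM in hepCLiP 3D and 0.591 to 2.10 CPM in hepCLiP 2D, which overlap. Most of the endothelial sum in bilCLiP 2D was Kdr, a receptor for VEGF, at a mean of 0.0771 CPM in bilCLiP 3D and 2.64 CPM in bilCLiP 2D, while Lyve1, Clec4g and Tie1 were at or near 0 in all groups. Macrophage and leukocyte markers summed to 5.40 to 19.3 CPM in bilCLiP 3D and 5.34 to 10.3 CPM in bilCLiP 2D, and to 6.67 to 20.0 CPM in hepCLiP 3D and 6.57 to 11.2 CPM in hepCLiP 2D, with Cd3e at 0 and Adgre1 and Clec4f at or near 0 in all groups. Of the hepatocyte markers, 9 of 10 were higher in 3D in each cell type, beside 15.8% of all tested genes in bilCLiP and 16.9% in hepCLiP. The part of any of these lists in the receptor changes was not tested.

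Libraries of the same replicate number deviated together between the 2 cultures of a cell type, so the ratio of 3D to 2D was also taken within each number. Rxra was 11.4, 9.80 and 5.45 times higher in bilCLiP (replicates 1, 2 and 3) and 6.13, 17.4 and 6.82 times higher in hepCLiP. Ppara was 10.5, 11.4 and 9.65 times higher in bilCLiP and 15.8, 15.2 and 7.41 times higher in hepCLiP. Nr1h3 was 10.2, 5.71 and 3.83 times higher in bilCLiP and 3.42, 5.61 and 4.37 times higher in hepCLiP. All 6 pairs of these genes thus had the higher value in 3D. For Nr1d1 the ratios were 2.27, 2.41 and 1.52 in bilCLiP and 1.50, 1.82 and 1.95 in hepCLiP, again above 1 in every pair. Nr1i2 had ratios of 164, 190 and 7.60 in bilCLiP, and of 1.30, 34.0 and 1.21 in hepCLiP, so that the hepCLiP pair with the RosaYFP reporter stood apart from the RosaConfetti pairs. Nr1h4 had ratios of 1.02, 1.18 and 0.858 in bilCLiP and 0.790, 0.790 and 1.85 in hepCLiP, with both directions in each cell type.

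**Figure D3:**
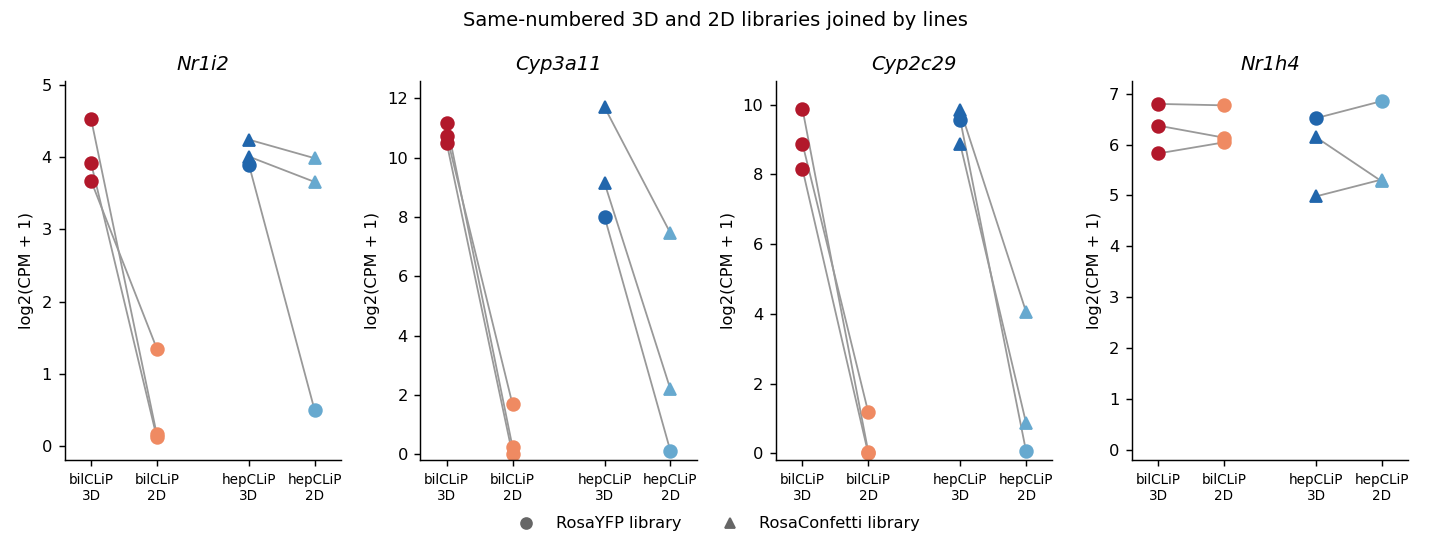
Level on a log2(CPM + 1) scale (y axis) of Nr1i2, the PXR target genes Cyp3a11 and Cyp2c29, and Nr1h4 in each library by group (x axis), with a line between the 3D and 2D libraries of the same replicate number; circles are RosaYFP and triangles RosaConfetti libraries. For Nr1i2 the lines of hepCLiP replicates 1 and 3 are nearly level, at ratios of 1.30 and 1.21, and that of replicate 2 is steep, at 34.0, whereas all lines of Cyp3a11 and Cyp2c29 run lower in 2D.

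On a scale that allows genes to be compared, CPM per kilobase of exon, the order of the levels differed between the cultures. In bilCLiP 3D Rxra led with 59.5 ± 14.5 (mean ± SD, n = 3), followed by Nr1h4 with 35.9 ± 11.9, Esrra with 19.8 ± 3.71 and Nr1h3 with 17.8 ± 5.12. In bilCLiP 2D Nr1h4 led with 35.1 ± 10.3, ahead of Esrra with 20.5 ± 1.75, Rxra with 7.17 ± 2.31 and Nr1h3 with 3.30 ± 1.83. Rxra thus ranked first in bilCLiP 3D and stood below Nr1h4 and Esrra in bilCLiP 2D. In hepCLiP 3D Rxra led with 116 ± 26.9, and Nr1h4 with 27.6 ± 13.2, Esrra with 26.7 ± 5.55 and Nr1h3 with 24.1 ± 0.462 overlapped each other. In hepCLiP 2D Esrra with 28.9 ± 4.85 and Nr1h4 with 27.7 ± 19.1 overlapped, and Rxra followed with 13.5 ± 5.72. Ppara, Nr1i2 and Nr1d1 held the middle places in all 4 groups, from 0.229 for Nr1i2 in bilCLiP 2D to 13.6 for Ppara in hepCLiP 3D. Nr1i3 and Nr0b2 were lowest everywhere, at or below 0.341.

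Since RXR alpha is shared, its level was set beside the summed level of 5 receptors that pair with it, those of Nr1i2, Nr1i3, Nr1h4, Ppara and Nr1h3, per kilobase of exon. The ratio of Rxra to this sum was 0.763, 0.993 and 0.952 in bilCLiP 3D, against 0.0955, 0.222 and 0.268 in bilCLiP 2D. In hepCLiP it was 2.01, 1.64 and 1.27 in 3D, against 0.661, 0.147 and 0.450 in 2D. The ratio was higher in each 3D library than in any 2D library. The sum itself averaged 65.9 ± 12.5 in bilCLiP 3D and 39.2 ± 8.07 in bilCLiP 2D, and 71.8 ± 13.5 in hepCLiP 3D and 37.9 ± 15.1 in hepCLiP 2D (CPM per kilobase, SD, n = 3). Nr1h4 made up 46.3% to 69.6% of the sum in bilCLiP 3D and 82.8% to 96.8% in bilCLiP 2D. In hepCLiP its share was 22.3% to 45.6% in 3D and 56.9% to 89.9% in 2D. Other receptors that pair with RXR, among them those of Nr1h2 and Rarb, are left out of the sum, and Rxrb is not added to Rxra. The ratio depends on this choice. These are transcript levels, chosen with the single genes' changes known, and are given without a test.

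**Figure D4:**
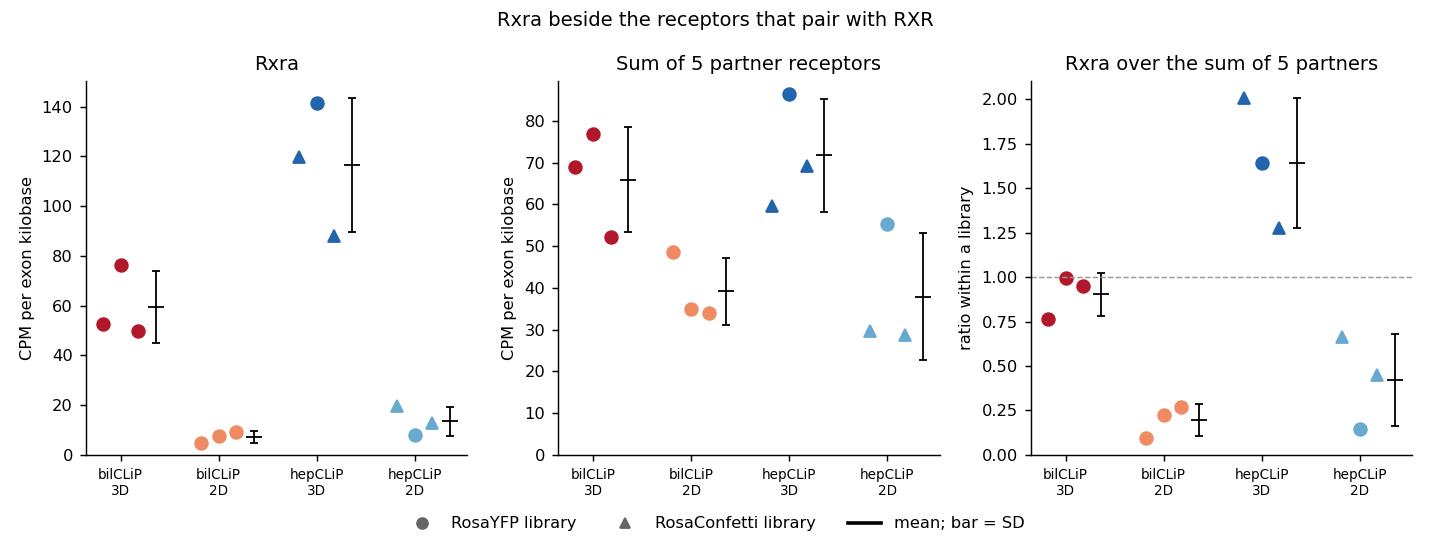
Rxra (left) and the sum of 5 chosen receptors that pair with it (middle) in CPM per kilobase of exon, and the ratio of Rxra to that sum within a library (right), with 1 point per library and the group mean with SD beside the points. Other partners are not in the sum. The ratio is 0.763 to 2.01 in the 3D libraries and 0.0955 to 0.661 in the 2D libraries.

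Between the cell types of the same culture, none of the 8 tested members was called. In 3D, 0.101% of all tested genes were called between bilCLiP and hepCLiP (0.0541% higher and 0.0473% lower in bilCLiP), and in 2D 0.135% (0.0811% higher and 0.0541% lower), so few genes passed at all. At an unadjusted p under 0.05 stood Rxra, Nr1d1, Ppara and Esrra in 3D, as well as Nr1i3, which entered the test through hepCLiP 3D, where it is high; of all tested genes, 16.6% stood below that p. In 2D these were Rxra, Nr1d1, Nr1i2 and Esrra, beside 14.5% of tested genes. The median log2 fold change of bilCLiP over hepCLiP over the 7 members apart from Nr1i3 was -0.44 in 3D and -0.92 in 2D, beside 0.00 and -0.04 over all tested genes. In 3D, Rxra, Nr1h3 and Nr1d1 of these 7 were lower in every bilCLiP library than in any hepCLiP library, as were 10.1% of tested genes. Nr1i3, which entered the test through hepCLiP 3D, and Nr0b2, which was not tested, were lower in this way too. For Nr0b2 the nearest libraries held 1 count each. In 2D, Ppara, Nr1d1 and Esrra were lower in this way, as were 11.9% of tested genes. No member was higher in all bilCLiP libraries, as 11.7% of tested genes were in 3D and 9.06% in 2D.

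Nr1d1 had the smallest adjusted p of the members in both cultures between the cell types. Its 7.95 to 13.7 CPM in bilCLiP 3D against 16.7 to 19.9 CPM in hepCLiP 3D gave a log2 fold change of -0.74 ± 0.20 (adjusted p = 0.163). Its 5.24 to 5.67 CPM in bilCLiP 2D against 10.2 to 11.1 CPM in hepCLiP 2D gave -0.98 ± 0.20 (adjusted p = 0.106). DESeq2, another count model, called both (-0.77, adjusted p = 0.0123 in 3D; -0.97, adjusted p = 0.000774 in 2D). For Nr1i2 the 2D cell types differed by a log2 fold change of -3.95 ± 1.17 (adjusted p = 0.210 in edgeR's test), which DESeq2 called (-3.93, adjusted p = 0.00775). With the RosaYFP libraries alone, a single hepCLiP 2D library with 0.409 CPM against bilCLiP 2D, this log2 fold change was 0.47, so cell type and reporter strain cannot be told apart for it. In 3D its log2 fold change was 0.04. Rxra had log2 fold changes of -0.97 in 3D (adjusted p = 0.221) and -0.92 in 2D (adjusted p = 0.275), and Ppara of -1.19 in 3D (adjusted p = 0.253) and -0.92 in 2D (adjusted p = 0.417), in edgeR's test. Nr1i3 had -2.52 ± 0.82 in 3D (adjusted p = 0.203), on 11 counts in bilCLiP 3D and 54 in hepCLiP 3D.

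Whether culture acted differently in the cell types was tested as the difference of the culture effects, bilCLiP minus hepCLiP. No gene was called in all (0% of those tested), and 3.60% had an unadjusted p under 0.05; DESeq2 called 16 genes, none of them a member. Of the members, Nr1i2 alone had an unadjusted p under 0.05, with a difference of 3.99 ± 1.51 on the log2 scale (95% interval 0.65 to 7.32, edgeR adjusted p = 1.00). With RosaYFP libraries only, its difference was -0.27. The differences of Ppara (-0.27, interval -1.78 to 1.25), Rxra (-0.05, -1.13 to 1.02), Nr1h3 (0.33, -0.92 to 1.58), Nr1h4 (0.03, -1.51 to 1.58), Nr1d1 (0.24, -0.39 to 0.87) and Esrra (0.06, -0.53 to 0.66) all had intervals that include 0. The intervals of Nr1d1 and Esrra stay within 1 on the log2 scale, and those of the others do not.

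Genes known as targets or partners of the receptors were read as lists, chosen with earlier results of these data known. Counts below are of tested genes, read beside the 15.8% higher and 14.5% lower of all tested genes in bilCLiP and the 16.9% higher and 17.9% lower in hepCLiP. Several list genes had next to no counts in 2D and, like Nr1i3, passed the filter only through 3D libraries, where they are high. Among them are Cyp7a1, Cyp8b1, Cyp4a31, Cyp2c37 and Cyp2c54. Of the genes described below, Cyp2b10, Cyp3a25, Slc27a5, Abcb11, Fabp1, Fgf21, Abcg5 and Hlf also passed only through 3D libraries. Such genes could not be called lower in 3D, yet they are kept in the list counts and medians. Rarb passed only through 2D libraries, where it is high, and could not be called higher. The counts, medians and fold changes that rest on such genes are descriptions. No list member was called between the cell types or in the difference of the culture effects.

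Of 22 tested target genes of PXR and CAR, 14 were higher and none lower in bilCLiP 3D (median log2 fold change 5.64, or 5.61 with genes at 0 set to their bounds), and 12 were higher and 2 lower in hepCLiP 3D (median 3.61). Cyp2b10, a cytochrome P450 known as a target of CAR, had 16.5, 106 and 55.5 CPM in bilCLiP 3D, against 0, 0.155 and 0.137 CPM in bilCLiP 2D. In hepCLiP it had 84.7, 85.7 and 191 CPM in 3D, against 0.139, 0.0455 and 0.799 CPM in 2D. The log2 fold changes were 9.14 ± 1.08 in bilCLiP and 8.53 ± 0.98 in hepCLiP. Of the 2 receptors of this list, Nr1i3 stayed below 2 CPM in every library. Nr1i2 had 11.8 to 22.2 CPM in the 3D libraries and 0.0861 to 14.8 CPM in the 2D libraries. The part of either receptor in the change of Cyp2b10 was not tested. Cyp2c29 had 284, 943 and 472 CPM in bilCLiP 3D, against 0, 0.0389 and 1.28 CPM in bilCLiP 2D, and 463, 750 and 922 CPM in hepCLiP 3D, against 0.833, 0.0455 and 15.7 CPM in hepCLiP 2D. Its log2 fold change was 10.37 ± 1.87 in bilCLiP and 7.02 ± 1.58 in hepCLiP, or 10.65 without hepCLiP 2D replicate 3. Cyp3a11, the classical target of PXR in mouse liver, had 1436, 2310 and 1705 CPM in bilCLiP 3D, against 0, 0.194 and 2.23 CPM in bilCLiP 2D (log2 fold change 11.15 ± 2.61). In hepCLiP it had 563, 255 and 3318 CPM in 3D, against 3.61, 0.0909 and 175 CPM in 2D, which did not pass the test (4.53, adjusted p = 0.0920). It passed with the fit blocked by replicate number (6.80, adjusted p = 0.00805) and without hepCLiP 2D replicate 3 (9.54, adjusted p = 0.00971). In hepCLiP 2D the order of the libraries was the same for Cyp3a11, Cyp2c29 and Nr1i2, with replicate 2 lowest and replicate 3 highest. The order was not particular to these genes. The summed hepatocyte markers, Cyp3a11 among them, had it too, at 2747, 1597 and 4044 CPM in replicates 1, 2 and 3. Cyp3a25, of the same family, had log2 fold changes of 11.87 ± 1.61 in bilCLiP and 5.76 ± 1.12 in hepCLiP, or 8.65 without hepCLiP 2D replicate 3. The Cyp2c and Cyp3a genes have close paralogues, and reads may be split between them. The 2 genes lower in hepCLiP 3D were Abcb1a, a drug efflux pump, and Gadd45b, a stress response gene. The call of Abcb1a (-2.28, adjusted p = 0.0401) was lost in 7 of the 12 fits that each left out a library, and its log2 fold change was -1.09 without hepCLiP 2D replicate 3. Gadd45b was called in bilCLiP as well with the block (-0.64, adjusted p = 0.0122).

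Of 10 tested genes downstream of FXR and SHP, 8 were higher and 1 lower in both bilCLiP 3D (median 6.71, or 5.54 with genes at 0 set to their bounds) and hepCLiP 3D (median 6.31). The transcript of FXR itself was called in neither. Abcb11, Slc27a5, Slc10a1, Cyp7a1 and Cyp8b1 of this list passed the filter only through 3D libraries, where they are high, and could not be called lower. The counts and medians of this list therefore describe it and are no support for a rise. Abcb11, the bile salt export pump that FXR induces, had 3.16, 66.4 and 9.69 CPM in bilCLiP 3D, against 0.0431, 0 and 0.137 CPM in bilCLiP 2D (log2 fold change 8.70 ± 1.37). In hepCLiP it had 40.5, 47.0 and 48.3 CPM in 3D, against 0.370, 0.455 and 0.05 CPM in 2D (7.23 ± 1.18). The export pump was more even across libraries in hepCLiP 3D than in bilCLiP 3D. Slc27a5, a bile acid ligase, had log2 fold changes of 10.12 ± 0.80 in bilCLiP and 11.11 ± 0.78 in hepCLiP. Kng1, encoding kininogen, had changes of 10.09 ± 1.09 in bilCLiP and 9.36 ± 1.06 in hepCLiP. Cyp7a1, the rate-limiting enzyme of bile acid synthesis, which SHP represses, was counted 59 times in bilCLiP 3D and not at all in bilCLiP 2D, which makes it at least 28.0-fold higher against a floor of 3 counts over the group. Its adjusted p was 0.0244 in edgeR's test and 0.0697 with no filter on low counts, and the call was lost without bilCLiP 3D replicate 2 (0.0565) or 3 (0.0547) or any 1 of the bilCLiP 2D replicates (0.0541 to 0.0596). Cyp8b1, the sterol 12-alpha-hydroxylase, was at least 166-fold higher in hepCLiP 3D and had a ratio of 44.1 in bilCLiP (31 counts against 1, exact 95% interval 7.35 to 1797, for counting error only). The bilCLiP call of Cyp8b1 was borderline (adjusted p = 0.0495) and was lost in 8 of the 12 fits without a library (0.0506 to 0.161). The gene that was lower was Pltp, a phospholipid transfer protein that is listed for LXR as well, with log2 fold changes of -2.31 in bilCLiP and -1.47 in hepCLiP. It was low in all groups, at 0.316 CPM on average in bilCLiP 3D and 1.60 CPM in bilCLiP 2D, and the hepCLiP call (adjusted p = 0.0328) was lost without any 1 of the 6 hepCLiP libraries (0.0541 to 0.0979). Of the intestinal targets, Fabp6 had no count in any group and Fgf15 at most 2 counts in a group.

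Of 24 tested targets of PPAR alpha, 14 were higher and 1 lower in bilCLiP 3D (median 0.87), and 15 were higher and 1 lower in hepCLiP 3D (median 0.96). Fabp1, a fatty acid binding protein, had log2 fold changes of 11.10 ± 0.79 in bilCLiP and 7.24 ± 0.61 in hepCLiP. Creb3l3, a transcription factor of the fasted liver, had changes of 7.06 ± 0.58 in bilCLiP and 6.31 ± 0.55 in hepCLiP. Fgf21, a hormone of fasting, had 14.1, 20.9 and 1.88 CPM in hepCLiP 3D against 0.324, 0 and 0.0999 CPM in hepCLiP 2D (6.37 ± 1.60). In bilCLiP its libraries overlapped, and its call (4.67 ± 1.48, adjusted p = 0.0349) was lost with no filter (0.115), with the 2 groups alone (0.0622) and without any 1 of 4 bilCLiP libraries (0.0721 to 0.108, edgeR). The 3 listed Cyp4a genes, omega-hydroxylases of fatty acids, had no count in either 2D culture except for 1 count of Cyp4a10 in hepCLiP 2D. Cyp4a31 was at least 42.7-fold higher in bilCLiP 3D and at least 62.4-fold higher in hepCLiP 3D. The listed gene that was lower in both was Plin2, a coat protein of lipid droplets.

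Of 15 tested targets of LXR, 8 were higher and 2 lower in both bilCLiP 3D (median 1.43) and hepCLiP 3D (median 1.00). Abca1, the cholesterol efflux pump, had 242, 206 and 215 CPM in bilCLiP 3D, against 12.5, 1.32 and 19.3 CPM in bilCLiP 2D. In hepCLiP it had 508, 382 and 291 CPM in 3D, against 23.8, 5.32 and 20.6 CPM in 2D (log2 fold change 4.57 ± 0.82). Abca1 was lowest in replicate 2 of both 2D groups. Abcg5 and Abcg8, which together form the sterol exporter of bile, had log2 fold changes of 6.46 ± 1.14 and 6.25 ± 1.05 in bilCLiP, and of 6.70 ± 1.16 and 5.37 ± 0.97 in hepCLiP. Apoe, encoding apolipoprotein E, had changes of 5.80 ± 1.09 in bilCLiP and 4.11 ± 1.01 in hepCLiP. Lpl, encoding lipoprotein lipase, had 206, 716 and 418 CPM in bilCLiP 3D, against 4.52, 4.98 and 11.9 CPM in bilCLiP 2D (5.97 ± 0.58). The genes lower in 3D were Pltp and Arl4c, a small GTPase.

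Of 18 tested genes of REV-ERB and the clock, 9 were higher and none lower in bilCLiP 3D (median 0.72), and 11 were higher and none lower in hepCLiP 3D (median 0.90). With the fit blocked by replicate number, 11 were higher and 1 lower in bilCLiP 3D. Hlf, a clock-controlled transcription factor, had 14.1, 7.95 and 9.94 CPM in hepCLiP 3D, against 0.879, 0.0455 and 0.599 CPM in hepCLiP 2D (log2 fold change 4.38 ± 0.86). In bilCLiP it had 146 counts in 3D against 1 in 2D, a ratio of 208 with an exact 95% interval of 36.7 to 8259 for counting error only. Its relative Tef had log2 fold changes of 1.82 ± 0.22 in bilCLiP and 2.05 ± 0.23 in hepCLiP. Rora, a receptor that activates at the DNA elements where REV-ERB represses, had changes of 1.88 ± 0.33 in bilCLiP and 1.68 ± 0.33 in hepCLiP.

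**Figure D5:**
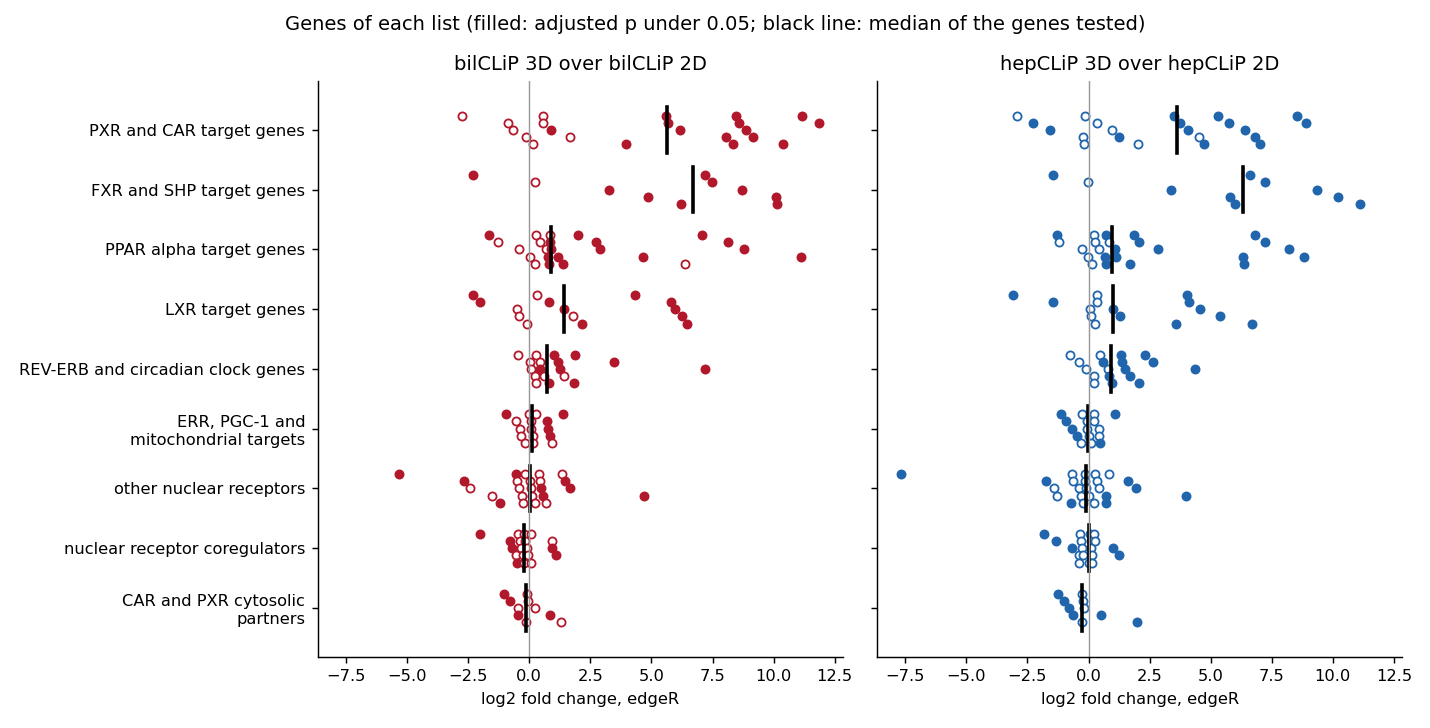
Log2 fold change of 3D over 2D (x axis) of each tested gene in the 9 lists of targets and partners (rows), in bilCLiP (left) and hepCLiP (right), with filled points for called genes and a black line at the list's median; fitted values of genes with no count in a group depend on the prior count. Medians of the FXR and SHP targets are 6.71 in bilCLiP and 6.31 in hepCLiP, and those of the bottom 4 lists lie between -0.26 and 0.12. Medians of the target lists include genes that passed the filter only through 3D libraries, where they are high.

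The remaining lists moved both ways. Of 16 tested genes of the ERR family, PGC-1 coactivators and mitochondrial targets, 4 were higher and 1 lower in bilCLiP 3D (median 0.12), and 2 were higher and 4 lower in hepCLiP 3D (median -0.01). Cs, encoding citrate synthase, fell by 0.94 on the log2 scale in bilCLiP 3D and by 1.12 in hepCLiP 3D, to 124 to 153 CPM in hepCLiP 3D, against 281 to 306 CPM in hepCLiP 2D. Acadm, a dehydrogenase of fatty acid oxidation that is a PPAR alpha target as well, rose by 0.85 in bilCLiP and 1.10 in hepCLiP, though the bilCLiP call was lost without 3D replicate 2 (adjusted p = 0.0517). Of 24 other nuclear receptors tested, 5 were higher and 4 lower in bilCLiP 3D (median 0.05), and 5 were higher and 3 lower in hepCLiP 3D (median -0.11). Without 1 library, 3 to 6 were higher and 2 to 4 lower in bilCLiP 3D. Rarb, the retinoic acid receptor beta and another partner of RXR, had 1 count in hepCLiP 3D against 393 in hepCLiP 2D, a ratio of 0.00384 (exact 95% interval 9.7e-05 to 0.0215, for counting error only). In bilCLiP it had 0.263, 0 and 0.0580 CPM in 3D, against 8.53, 1.52 and 3.10 CPM in 2D (-5.33 ± 0.97). Nr5a2, known as LRH-1 and an activator of bile acid synthesis genes, had log2 fold changes of 4.68 ± 1.10 in bilCLiP and 3.99 ± 1.03 in hepCLiP, the second not called with no filter on low counts (adjusted p = 0.0556). Thrb, the thyroid hormone receptor beta, had changes of 1.69 ± 0.29 in bilCLiP and 1.96 ± 0.30 in hepCLiP, and Hnf4a of 1.47 and 1.63. Nr4a1, an immediate early receptor, was lower, with changes of -2.67 ± 0.43 in bilCLiP and -1.73 ± 0.42 in hepCLiP.

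Of 19 coregulators tested, 2 were higher and 4 lower in bilCLiP 3D (median -0.24), and 2 were higher and 3 lower in hepCLiP 3D (median 0.02). With the block, 6 were lower in bilCLiP 3D and 5 in hepCLiP 3D. The coactivators Ncoa1 and Ncoa2 had log2 fold changes of 1.09 ± 0.17 and 0.94 ± 0.22 in bilCLiP and of 1.02 ± 0.17 and 1.23 ± 0.22 in hepCLiP. Nrip1, the corepressor RIP140, had 15.1, 14.4 and 17.3 CPM in bilCLiP 3D, against 61.1, 63.0 and 64.9 CPM in bilCLiP 2D. In hepCLiP it had 18.6, 23.8 and 18.3 CPM in 3D, against 81.0, 65.5 and 67.2 CPM in 2D. The log2 fold changes were -2.01 ± 0.14 in bilCLiP and -1.82 ± 0.14 in hepCLiP. Of 10 genes of the cytosolic complexes and signals that hold CAR and PXR, 1 was higher and 3 lower in bilCLiP 3D (median -0.12), and 2 were higher and 4 lower in hepCLiP 3D (median -0.26). Hsp90aa1, the chaperone that keeps CAR in the cytosol, had log2 fold changes of -1.04 ± 0.22 in bilCLiP and -1.26 ± 0.22 in hepCLiP. Mapk3, encoding the kinase ERK1, had changes of -0.78 ± 0.17 in bilCLiP and -0.99 ± 0.17 in hepCLiP.

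For each tested member, the genes whose profile over the 12 libraries was nearest were taken from 10754 candidates, by the root mean square difference of log2(CPM + 1) values centred on their mean. The value is small where a profile follows the member's and also where both are flat, so it is set beside the member's own SD over the libraries. Nearest to Nr1h3 was Sqor, a mitochondrial sulfide oxidoreductase, at 0.16, and next Tm6sf2, a gene of lipoprotein secretion, at 0.26, where the SD of Nr1h3 was 1.30. Nearest to Rxra were Zhx3 and the transporter gene Slc10a5, both at 0.30, where its SD was 1.73. Nearest to Ppara were Dgat2, which makes triglycerides, at 0.38 and Reps2 at 0.40, where its SD was 1.76. Nr1i2 had no close match, with Angptl8 at 0.65 and Slc22a18 at 0.68 beside an SD of 1.74. Nearest to Nr1d1 were Gne at 0.19 and Ndufv1 at 0.23 (SD 0.62), and to Nr1h4 Lysmd2 and Klhdc4, both at 0.29 (SD 0.63). Esrra had Fads3 at 0.13 (SD 0.32), and Nr1i3 had Lpgat1 at 0.17 and Asic1 at 0.20 (SD 0.50). These are descriptions of likeness across libraries that share culture and cell type.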

How the data were processed

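RNA was sequenced from 12 mouse cultures, 3 libraries for each of 4 groups, which were taken from the sample titles. The authors deposited raw counts per gene and a second table of normalized values (a signal per gene), which equal the deposited counts divided by 1 constant per library within a relative tolerance of 0.001. Per the submitters' processing notes the tools were featureCounts 2.0.1, STAR 2.7.10b and DESeq2 and the build GRCm39. The role of each and the strandedness of the counting are not stated, so reads of antisense and overlapping genes may be mixed. No 2 libraries were identical.

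Counts were tested in R 4.3.3 with edgeR 4.0.16 (filterByExpr, TMM scaling, robust quasi-likelihood fit of 4 group means over 12 libraries, Benjamini-Hochberg adjustment over 14798 genes). The 24092 genes with no count anywhere are among those removed. CPM use TMM effective library sizes, and SEs come from the log2 fold change and F. The steps were tested on simulated data. DESeq2 1.42.0 and limma 3.58.1, limma being run on log2(normalized count + 1), served as alternatives, as did other scalings, filters, subsets and fits that each left out 1 library. Exon lengths and overlaps are from GENCODE M21 (GRCm38), and promoters from RefSeq (GRCm38.p6). Intervals on few counts cover counting error only, since PCR copies are not independent molecules.

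The members and lists were chosen with earlier results of these data known. Named were all 9 members, up to 4 called genes per list and culture comparison with the largest change (group mean 5 CPM or more in some group), and the 2 nearest genes per member; a few of these are not reported here. Other genes named (among them relatives of members, overlapping genes, genes at 0 and the genes lower in a list) were chosen after their values were seen. Replicate numbers come from the titles: deviations from group means correlated at 0.432 to 0.513 between same-numbered 3D and 2D libraries of a cell type and below 0 between all others, so the numbers pair the cultures within a cell type. The main fit of 4 group means leaves this pairing out, and results of the fit blocked by replicate number are given where named. Across cell types the same-numbered libraries correlated at 0.0218 to 0.150 and do not pair.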

Additional observations from a re-analysis of the deposited data

How the results depend on the processing

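The calls of Ppara, Rxra, Nr1h3 and Nr1d1 with culture held in both cell types under the other scaling, filter and tools, the replicate block and every fit without 1 library, with the log2 fold changes of Rxra at 2.82 to 3.26 in bilCLiP and 2.85 to 3.47 in hepCLiP without 1 library. With RosaYFP libraries only, the hepCLiP calls were 769 genes and 1 member, Rxra, from a single library per culture that is assumed to vary like the other groups. Of 36 named genes of the target and receptor lists called in hepCLiP, 24 were then not called. The Nr1i3 call in bilCLiP was lost with no filter (adjusted p = 0.0699), limma (0.0813), RosaYFP libraries only (0.0839) and the replicate block (0.0575), and its adjusted p was 0.0325 to 0.235 without 1 library.

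Counts between the cell types depended on the tool. In 2D, against 20 genes by edgeR, DESeq2 called 559 genes and 2 members, limma 38, the fit of the 2 groups alone 5, RosaYFP libraries only 5 and the replicate block 62, where the cell types are not paired. In 3D, against 15 genes, DESeq2 called 652 genes and 1 member, limma 26, the 2 groups alone 3 and the block 44. For the difference of the culture effects DESeq2 called 16 genes. Without 1 library, the genes called were 6 to 31 in 2D, 3 to 251 in 3D (251 without hepCLiP 3D replicate 3) and 0 to 3 for the difference, with 0 members in each. With culture they were 4133 to 5227 in hepCLiP with 5 members and 3088 to 4555 in bilCLiP with 5 to 6. Nr1i3 is among these members in all 12 such hepCLiP fits and in 2 of the 12 bilCLiP fits. The causes were not tested.

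Values near 0 changed sign. Nr1h4 in hepCLiP was 0.0437 with RLE scaling and with DESeq2, 0.0542 with limma, 0.0237 with the 2 groups alone and 0.0636 with the block, and -0.34 to 0.74 without 1 library. In bilCLiP it was -0.00358 with no filter, -0.0252 with limma and -0.21 to 0.30 without 1 library. Its difference of culture effects was -0.00959 with RLE, -0.00201 with no filter, -0.00947 with DESeq2, -0.0794 with limma, -0.0473 with the block and -0.71 to 0.38 without 1 library. With RosaYFP libraries only it was -0.51 between the cell types in 2D and -0.14 in 3D. Nr1i2 between the cell types was 0.47 in 2D with RosaYFP only, and in 3D -0.0148 with limma and -0.27 to 0.21 without 1 library; its difference of culture effects was -0.27 with RosaYFP only. Esrra was 0.00883 in hepCLiP with RosaYFP only, and without 1 library -0.29 to 0.0777 in hepCLiP and -0.19 to 0.0507 in bilCLiP. Differences of culture effects without 1 library were -0.14 to 0.24 for Esrra, -0.81 to 0.18 for Ppara, -0.42 to 0.21 for Rxra, -0.0631 to 0.66 for Nr1h3 and -1.66 to 1.12 for Nr1i3, and with RosaYFP only -0.0617 for Nr1h3 and -0.0583 for Esrra.

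Blocking by replicate number changed no other call of a member. Among the lists, the block gave 2 genes lower, against 1, for the PPAR alpha targets in both cell types and the ERR list in bilCLiP, 1 lower, against none, for the PXR and CAR targets in bilCLiP, and 2 higher, against 1, for the partners of CAR and PXR in bilCLiP. Without 1 library the genes lower were 1 to 4 for the ERR list in hepCLiP (1 to 3 higher), 1 to 2 for it and for the PPAR alpha targets in bilCLiP, 2 to 4 for the other receptors in bilCLiP (3 to 6 higher), 1 to 3 for the PXR and CAR targets and 1 to 2 for the LXR targets in hepCLiP; those of the partners of CAR and PXR higher were 1 to 2 in each cell type. A single gene was lower or not, by the library left out, for the PXR and CAR targets in bilCLiP and for the FXR targets and the clock genes in hepCLiP. With the 2 groups alone, Nr1i3 did not pass the filter in bilCLiP or between the cell types in 2D, and the difference of culture effects, which needs 4 groups, has no such fit. Depth limits Nr1i3 and Nr0b2, each with under 60 counts per group.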
